A study of Mus musculus with 7 samples.

Results

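T cells of the small intestinal epithelium that carry an αβ T cell receptor and both chains of CD8 were examined in young and old mice. These cells are usually called induced CD8αβ intraepithelial lymphocytes (IEL). A cell was taken as a member when it had a productive TRB contig, at least 1 unique molecular identifier (UMI) each of Cd8a and Cd8b1, and 0 UMIs of Cd4 and Trdc, the constant gene of the δ chain. In the IEL pools 608 of 10159 cells met these conditions, out of 21365 cells in the whole series. They were 333 of 4348 young IEL cells and 275 of 5811 old IEL cells. In spleen (SP) the same conditions were met by 1727 of 5668 young and 2488 of 5538 old cells, which served for comparison.

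By the sample labels all mice were C57BL/6 males, with no allele or treatment named, 6 weeks old in the young and 80 weeks old in the old groups. Cells of 3 mice were mixed into 1 pool per age and tissue, tagged with a hashtag antibody per pool, and sequenced with 10x 5′ gene expression and T cell receptor libraries. The hashtags marked pools and not mice, so no cell can be traced to its mouse. A figure legend gives more young mice than the methods do, so the number of mice behind the young pools is not certain. With 1 pool per group, differences between groups could not be tested, and all intervals below are exact 95% intervals that cover counting error only. None of the 21365 barcodes occurred in more than 1 pool. This would hold for pools split by hashtag in any case, and cells assigned to a wrong pool were not measured. A further 3 library records that name no age or tissue were not placed in a group.

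IEL lie between the epithelial cells of the gut. Induced IEL arise from conventional CD8+ or CD4+ T cells that met antigen in the periphery and then settled in the epithelium. Natural IEL reach it from the thymus directly and have an αβ or γδ receptor, many of them with CD8αα in the epithelium. Settled cells are held by the integrin CD103 (Itgae with Itgb7), which binds E-cadherin on epithelium, and they store granzymes, the proteases that are released with perforin to kill target cells. T cells that keep circulating carry the lymph node homing receptor CCR7 and the egress receptor S1PR1 in place of these.

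Members made up 7.66% of young IEL cells (interval 6.89 to 8.49) and 4.73% of old IEL cells (4.20 to 5.31). Among cells with a productive TRB contig the shares were 12.1% of 2760 in young and 7.67% of 3586 in old. In SP the same conditions held for 30.5% of young and 44.9% of old cells. The IEL pools had been made from sorted CD3+ cells and sorted CD3+CD4+ cells in equal parts, so the sort also sets these shares, and its part in the difference between the ages cannot be told apart. The members held 2488880 UMIs in young IEL and 1612996 in old IEL, with medians of 6514 and 5570 UMIs per cell. The SP cells through the same gate held 12306161 and 21553945 UMIs, with medians of 6708 and 8466.

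Cd8a and Cd8b1 chose the members, so their values are given as a description. The median member had 5 Cd8b1 UMIs in both IEL pools and the median SP cell had 11 (young) or 12 (old), while the Cd8a median was 11 in both IEL pools and 3 in both SP pools. Just inside the threshold, with 1 Cd8b1 UMI, were 67 young and 38 old IEL members (20.1% and 13.8%). Just outside, with Cd8a but 0 Cd8b1 UMIs and all other conditions met, were 714 young and 1146 old IEL cells. In SP only 11 young and 25 old cells had 1 Cd8b1 UMI, and 59 and 64 lay just outside.

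The label was then checked against markers that the gate does not read. To make the shares comparable, every cell was thinned to 2000 UMIs, which left out 1 old member. Itgae was found in 73.3% of young and 79.2% of old members (95.5% and 96.0% before thinning). SP cells that should lack it, those with TRB and Cd4 and without Cd8a or Cd8b1, had it in 0.644% of young and 2.13% of old cells (1.99% and 3.66% before thinning), at median depths of 5428 and 4679 UMIs. Gzmb was found in 83.5% of young and 83.9% of old members (88.0% and 86.9% before thinning), against 3.16% and 4.54% of those SP cells (8.59% and 9.25% before thinning). Both markers of the label were therefore found in most members at both ages, far above their shares in SP CD4 cells. The SP CD4 cells lie in other pools, so stray RNA within the IEL pools was not measured. Both markers were also present in IEL αβ cells with Cd8a and without Cd8b1, so they do not tell members from these cells. There Itgae stood at 8.14 (young) and 8.30 (old) UMIs per 10000 UMIs, and Gzmb at 93.6 and 76.3. In members with at least 5 Cd8b1 UMIs, Itgae stood at 8.21 and 9.02, and Gzmb at 71.7 and 48.0.

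A part of the gate, however, carried genes of natural IEL, and this followed the number of Cd8b1 UMIs. Fcer1g and Tyrobp, signalling adaptors that natural IEL share with NK cells, are given here in UMIs per 10000 UMIs, the level used throughout. From 0 through 1 and 2 to 4 to at least 5 Cd8b1 UMIs, Fcer1g stood at 26.2, 16.8, 6.87 and 0.884 in young IEL. In old IEL it stood at 26.8, 22.1, 3.06 and 0.501. Cells with 1 Cd8b1 UMI were thus closer to the cells outside the gate than to members with 5 or more.

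Tyrobp stood at 18.2, 10.9, 3.01 and 0.317 over the same 4 steps in young IEL, and at 11.2, 14.6, 2.24 and 0.0104 in old IEL. The NK receptor gene Klrd1 went from 8.97 at 0 UMIs to 1.92 at 5 or more in young IEL and from 9.98 to 1.11 in old IEL. Lag3, an inhibitory receptor, went from 4.004 to 0.877 and from 4.67 to 0.700. These genes were lower with each step up in Cd8b1 in young IEL, and in old IEL only Tyrobp and Lag3 were not highest at 0 UMIs.

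Cd5 and Cd6, which encode surface proteins of conventional T cells that temper receptor signals, took the other direction. Cd5 stood at 0.445, 1.67, 3.45 and 2.96 over the 4 steps in young IEL, and at 1.06, 2.31, 5.01 and 5.65 in old IEL. Cd6 stood at 0.387, 1.67, 4.14 and 4.07 in young IEL and at 0.951, 2.45, 6.11 and 6.03 in old IEL, so both were lowest outside the gate and near level from 2 UMIs on. Itgae stayed between 7.31 and 8.21 over the 4 steps in young IEL and between 8.30 and 9.02 in old IEL. Cd160, another receptor gene of natural IEL, was not lower with more Cd8b1, at 5.64, 5.59, 7.47 and 7.59 in young IEL and at 6.02, 5.62, 6.49 and 8.67 in old IEL. Fcer1g, Tyrobp, Klrd1 and Lag3 were thus lowest in the 184 young and 156 old members with at least 5 Cd8b1 UMIs, and the main results on age are given for these as well.

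**Figure D1:**
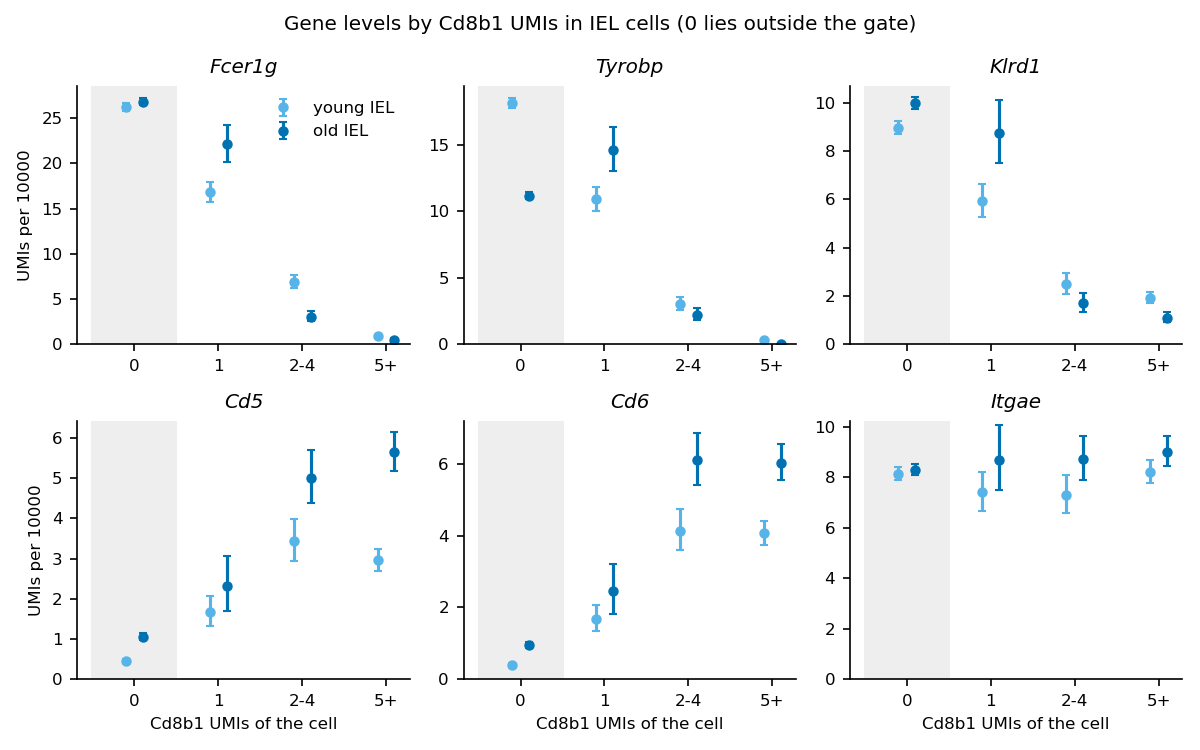
Levels (UMIs per 10000, vertical axes) of 6 genes in young and old IEL cells grouped by their Cd8b1 UMIs (horizontal axes); points are summed levels of a pool and bars exact 95% counting intervals, and the grey band marks cells with 0 Cd8b1 UMIs, outside the gate. Fcer1g reached 26.2 and 26.8 at 0 UMIs and 0.884 and 0.501 at 5 or more, Cd5 and Cd6 were lowest at 0 UMIs, and Itgae was level.

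Genes of other cell types were looked at in the members as whole lists. Of 16 epithelial genes 12 were at 0 in each IEL pool, and the list summed to 0.338 in young and 0.310 in old, nearly all of it Epcam (0.297 and 0.248). Of 8 B cell genes 3 were at 0 in young and 4 in old, among them Cd79a and Ms4a1 in both, with sums of 1.70 and 0.818. The 8 myeloid genes summed to 0.591 and 0.205, led by Itgax, which natural IEL also carry (0.898 and 0.899 in cells with Cd8a and 0 Cd8b1 UMIs). The 8 genes of CD4 and regulatory T cells summed to 2.22 and 3.47, nearly all of it Ctla4.

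γδ T cell genes summed to 6.24 in young and 7.48 in old members, led by Tcrg-C4 with 2.48 and 2.62, while Trdc was at 0 through the gate. Tcrg-C4 was about as high in the αβ cells just outside the gate, at 3.18 and 3.07. The 12 natural IEL genes summed to 23.5 and 23.3, led by Cd160, and of 7 compared between the ages 1 was at least 2-fold higher in old and none lower (median -0.25, against 0.01 over all genes). More than 1 productive TRB contig was found in 30 young and 2 old members. Clonotypes with more Cd4+ than Cd8b1+ cells held 11 young and 15 old members.

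The receptors of the members are described next, since no part of the gate reads their sequence. A clonotype was defined by the V gene, the J gene and the nucleotides of the third complementarity-determining region (CDR3) of the TRB contig with the most UMIs. CDR3 spans the V-D-J junction, where bases are removed and added at random during rearrangement, so that identical nucleotides in several cells mark descent from 1 rearranged cell or, rarely, a repeat of the same rearrangement. The 333 young members held 195 clonotypes and the 275 old members held 115. At an equal 250 cells the expected numbers were 158.0 and 107.8 in IEL, and 249.9 and 139.6 in SP.

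Members of old IEL were concentrated in fewer clonotypes. The largest clonotype held 14 young members (4.20%, interval 2.32 to 6.95) and 37 old members (13.5%, 9.65 to 18.1). The 10 largest held 23.7% of young and 46.2% of old members. Clonotypes seen once held 42.3% of young and 28.4% of old members. A pair of members drawn at random shared its clonotype in 0.758% of draws in young and 3.20% in old.

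The same values were taken in the SP cells through the gate. In young SP the largest clonotype held 3 of 1727 cells (0.174%) and 99.4% of cells were seen once. In old SP 1 clonotype, TRBV2 with TRBJ2-7, held 1070 of 2488 cells (43.0%) and 50.4% of cells were seen once. Old SP thus had 1 dominant clonotype, and old IEL had 10 clonotypes of at least 5 members that together held 46.2% of members. Over all cells of the old IEL pool these 10 clonotypes held 216 cells, 156 with Cd8b1 and 68 with Cd4, against 94, 93 and 4 for the 11 young clonotypes of that size. Of the 8 largest in old IEL only TRBV19 with TRBJ2-5 held Cd4+ cells (5 of 19), so the others lay in the smallest pair of the 10, which together held mainly Cd4+ cells. Whether the large clonotypes came from 1 mouse or several is not known.

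**Figure D2:**
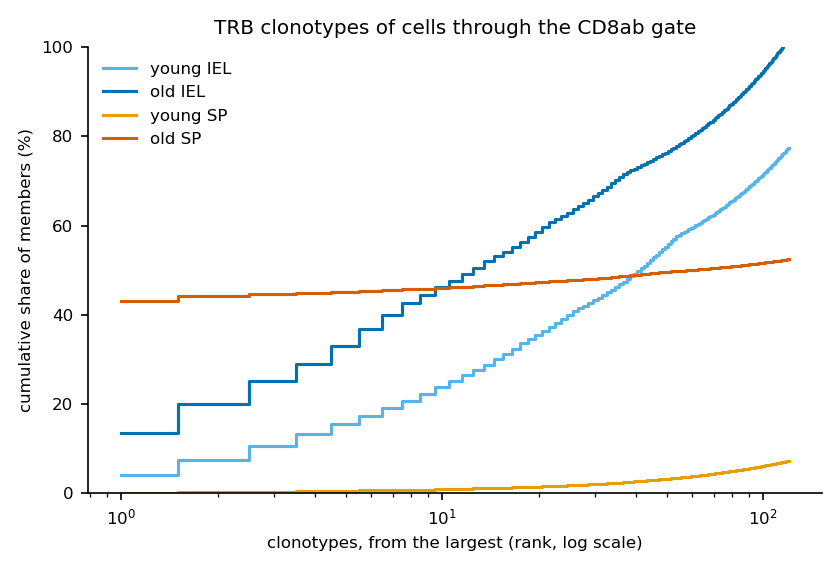
Cumulative share of members (percent, vertical axis) over TRB clonotypes ranked from the largest (horizontal axis, log scale) in each of the 4 pools. The 10 largest clonotypes held 23.7% of young and 46.2% of old IEL members, and in SP they held 0.926% (young) and 46.0% (old).

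The TRB CDR3 of the largest clonotypes are shown because they carry the concentration just described. In all sequences capitals mark the bases, from the second codon on, that matched neither the 3′ end of the V gene nor the J gene in the GENCODE M21 transcripts, that is added bases and, in TRB, the D segment. Each is read 5′ to 3′ from the files, and the segments lie on chromosome 6 of mm10, with TRBV10 at chr6:41091940-41092228, TRBV13-3 at chr6:41130147-41130585 and TRBJ2-7 at chr6:41543810-41543856.
Young IEL, 14 members, TRBV10 and TRBJ2-1: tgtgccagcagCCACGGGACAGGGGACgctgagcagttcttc
Young IEL, 11 members, TRBV29 and TRBJ2-1: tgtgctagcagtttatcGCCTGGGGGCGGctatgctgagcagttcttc
Young IEL, 10 members, TRBV15 and TRBJ2-1: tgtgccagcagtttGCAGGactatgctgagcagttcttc
Old IEL, 37 members, TRBV13-3 and TRBJ2-7: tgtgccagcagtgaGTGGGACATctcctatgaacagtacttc
Old IEL, 18 members, TRBV10 and TRBJ2-3: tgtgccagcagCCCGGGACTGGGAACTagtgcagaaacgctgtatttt
Old IEL, 14 members, TRBV19 and TRBJ2-5: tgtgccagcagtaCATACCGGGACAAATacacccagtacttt
The α chain was then read in the same members. Of the 37 old members of the largest clonotype, 28 had the same TRA CDR3 as their leading α contig, 9 had no TRA contig, and none had another.
Its TRA, TRAV9D-3 and TRAJ37: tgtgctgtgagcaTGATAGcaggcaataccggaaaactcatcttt
In the young clonotype of 14 members the leading α contig was 1 of 2 sequences, in 8 and 5 members, and 1 member had none. In the old clonotype of 18 members it was again 1 of 2 sequences, in 8 members each, and 2 members had none.

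CDR3 length did not separate the pools, with a median of 14 codons in each of them. Among the 8 largest clonotypes of each IEL pool the junction varied widely. It ranged from 3 such bases in 1 young TRBV15 clonotype of 6 members to 16, as in the largest young clonotype. TRBV15 (chr6:41141188-41141658) joined to TRBJ2-1 (chr6:41542754-41542803) with a CDR3 of 13 codons occurred in both ages. It was noticed among the largest clonotypes and counted after its values had been seen.
Young IEL, 10 members: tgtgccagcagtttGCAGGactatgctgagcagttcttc
Young IEL, 6 members: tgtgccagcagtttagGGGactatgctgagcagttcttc
Old IEL, 11 members: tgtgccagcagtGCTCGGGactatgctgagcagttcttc
These 3 sequences differed in the junction and kept 20 bases of TRBJ2-1. The combination held 3 of 195 young clonotypes and 2 of 115 old clonotypes, which were 18 and 14 members (5.41% and 5.09%). In SP it held 2 of 1721 young and 2 of 1303 old clonotypes.

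Use of single segments was counted once per clonotype, so that large clonotypes do not weigh more. TRBV16 was used by 16.9% of young IEL clonotypes (interval 11.9 to 22.9) and 11.3% of old (6.16 to 18.6), against 7.73% in young SP (6.51 to 9.09) and 6.98% in old SP (5.66 to 8.51). TRBJ1-4 was used by 18.3% of old IEL clonotypes (11.7 to 26.5), against 8.21% of young IEL clonotypes, and in SP it was used by 5.11% (young) and 6.60% (old). TRBJ2-1 was used by 20.5% of young IEL clonotypes and 9.57% of old, against 14.2% and 12.2% in SP.

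Young IEL shared no clonotype with any other pool. Old IEL shared 4 of its 115 clonotypes with old SP (3.48% of old IEL and 0.307% of old SP clonotypes), and 1 with young SP. In 3 of the 4 the α chain was also shared, and these are shown because they join the same rearrangement in both tissues.
TRBV10 and TRBJ2-3, 18 old IEL members and 1 old SP cell: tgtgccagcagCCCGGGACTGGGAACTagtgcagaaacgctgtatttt
Its TRA, TRAV13D-2 and TRAJ22: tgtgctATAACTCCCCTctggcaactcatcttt
TRBV16 and TRBJ2-7, 3 old IEL members and 2 old SP cells: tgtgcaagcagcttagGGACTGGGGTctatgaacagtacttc
Its TRA, TRAV8N-2 and TRAJ40: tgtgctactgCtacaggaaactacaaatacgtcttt
TRBV12-2+TRBV13-2 and TRBJ2-4, 1 old IEL member and 1 old SP cell: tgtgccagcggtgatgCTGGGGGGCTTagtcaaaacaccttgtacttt
Its TRA, TRAV16N and TRAJ42: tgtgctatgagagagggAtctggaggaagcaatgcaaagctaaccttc
In the first, the 18 IEL members together had 1784 Gzma and 0 Klf2 UMIs, and the SP cell had 0 Gzma and 5 Klf2 UMIs. In the second, the IEL members had 176 Gzma and 0 Klf2 UMIs, and the SP cells had 0 Gzma and 10 Klf2 UMIs. In the last, the single IEL member had 0 Gzma and 6 Klf2 UMIs, as in SP, where its partner had 1 and 9. Klf2 encodes the transcription factor that keeps T cells in circulation. Cells of the TRBV10 and TRBV16 clonotypes thus had the Gzma and Klf2 pattern of the tissue they were found in, and the IEL member of the last clonotype did not. In the clonotype shared with old SP by TRB alone, TRBV13-1 with TRBJ1-6, the IEL member also had the SP pattern, with 1 Gzma and 10 Klf2 UMIs. In the clonotype shared with young SP, TRBV12-2 with TRBJ1-2 and also by TRB alone, the IEL member had 164 Gzma and 0 Klf2 UMIs and the SP cell had 0 and 1.

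Members were next compared with the SP cells through the same gate, which asks how CD8αβ T cells of the epithelium differ from those of a lymphoid organ. Most of the granzyme, chemokine, residency and inhibitory receptor genes compared were higher in IEL in both ages, with Gzmm lower and Cxcr6 near level in old mice among the exceptions, and most genes of circulating and naive T cells were lower. Of 3506 genes compared in the young pools, 444 were at least 2-fold higher in IEL (12.7%) and 206 at least 2-fold lower (5.88%). In the old pools 587 of 3572 were higher (16.4%) and 229 lower (6.41%). Either way, 18.5% of genes passed in young and 22.8% in old. The median log2 ratio over all genes, after adding 0.1 to both levels, was 0.28 in young and 0.37 in old. These comparisons and that of the ages use the same IEL pools. A gene could be compared when it reached 0.5 UMIs per 10000 in either pool, so genes low in 1 pool entered only through the other, and the counts over lists here and below are descriptions.

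Among effector genes, Gzma and Gzmb, which encode granzymes A and B, stood out. Gzma stood at 232 and 229 UMIs per 10000 in young and old IEL members and at 0.532 and 0.476 in young and old SP. Gzmb stood at 71.3 and 56.05 in IEL and at 0.173 and 0.744 in SP. In SP, Gzma was found in 10.5% and 8.24% of thinned cells, no more than in the SP CD4 cells (11.4% and 12.97%). Before thinning the shares were 28.6% and 26.4% against 26.6% and 26.7%, so the SP level of Gzma was read as background. Of the cytotoxic list of 14 genes, 9 of 11 compared were at least 2-fold higher in young IEL, with a median of 2.18, and 7 of 13 in old IEL, with a median of 1.77.

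Gzmm was the 1 cytotoxic gene that was at least 2-fold lower in old IEL. It encodes granzyme M and stood at 0.00804 and 0.0434 in young and old IEL, and at 0.220 and 4.69 in young and old SP. Without the largest old SP clonotype the old SP level was 1.18. Perforin (Prf1) was low in each of the pools, at 0.514 and 0.713 in young and old IEL and at 0.385 and 1.03 in young and old SP. Among chemokines, Ccl5 stood at 446 and 323 in IEL and 10.3 and 104 in SP, and Ccl4 at 20.7 and 29.1 in IEL and 0.602 and 0.946 in SP. Of the 18 cytokine and chemokine genes, 6 of 8 compared were at least 2-fold higher in IEL at both ages, and Ltb, a lymphotoxin chain, was lower.

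Of 16 residency genes, 12 of 14 compared were at least 2-fold higher in young IEL (median 3.17) and 13 of 14 in old IEL (median 3.20), and 7 of the 16 reached the level minimum in an SP pool. Itga1, the collagen-binding integrin chain CD49a, stood at 2.97 and 2.86 in IEL and 0.0211 and 0.0594 in SP. Rgs1, a regulator of chemokine receptor signals, stood at 30.8 and 39.0 in IEL and 0.291 and 0.368 in SP. Cxcr6 was the exception in old mice, with 0.887 in IEL and 0.973 in SP. Zfp683, which encodes Hobit, was near 0 in each of the 4 pools (0.0121, 0.0496, 0.0236 and 0.0269) and was not compared.

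Of 12 genes of naive and circulating T cells, 11 were compared, and these 11 were at least 2-fold lower in IEL at both ages, with medians of -3.51 and -3.60. Only 4 of the 12 reached the level minimum in an IEL pool, so most of the 11 were compared through their level in SP, and this count too is no support. Klf2 stood at 0.526 and 0.484 in IEL and 11.6 and 9.18 in SP, and Ccr7 at 0.165 and 0.0186 in IEL and 3.43 and 2.31 in SP. Lef1, a transcription factor of naive T cells, stood at 0.269 and 0.0310 in IEL and 5.42 and 3.04 in SP.

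**Figure D3:**
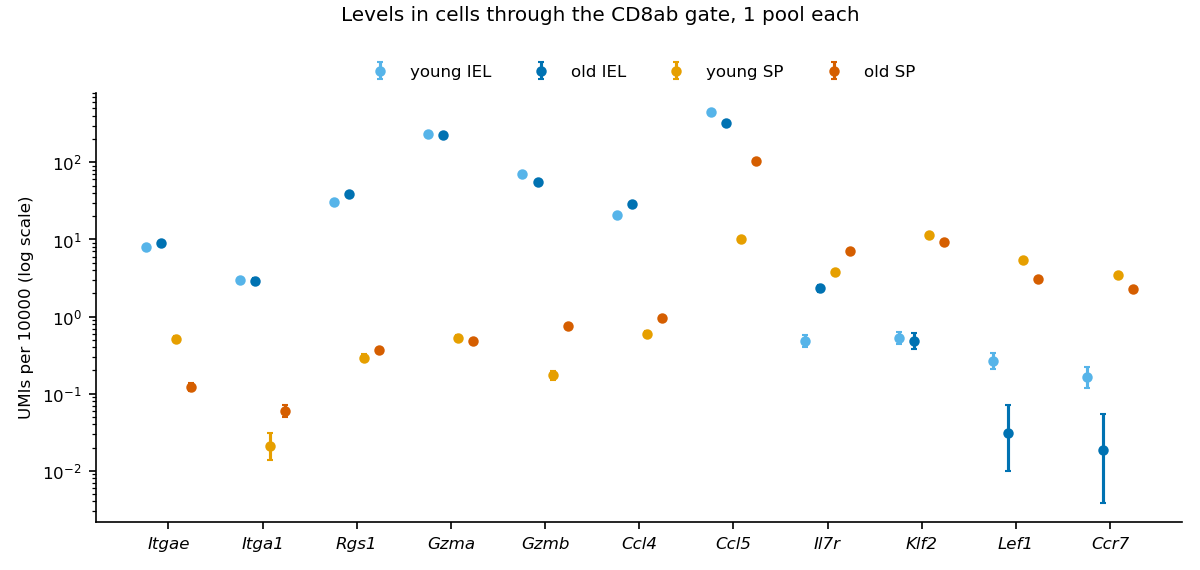
Levels (UMIs per 10000, vertical log axis) of 11 genes in cells through the CD8αβ gate; points are summed levels of a pool (1 pool per age and tissue) and bars exact 95% counting intervals. Itgae, Itga1, Rgs1, Gzma, Gzmb, Ccl4 and Ccl5 lay higher in both IEL pools than in both SP pools, and Il7r, Klf2, Lef1 and Ccr7 lay lower.

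The remaining genes named for this comparison were chosen by size in both ages. Fcer1g stood at 5.31 and 3.999 in IEL and 0.0284 and 0.0469 in SP, and its IEL level came largely from members with few Cd8b1 UMIs, as described above. Dapk2, a calmodulin-dependent kinase, stood at 3.67 and 3.96 in IEL and 0.0382 and 0.116 in SP. Litaf, a lysosomal membrane protein gene, stood at 4.79 and 5.95 in IEL and 0.0601 and 0.0956 in SP. All 3 were higher in both IEL pools with counting intervals far apart, which follows from their choice by size and is no support.

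On the other side, Ly6c2, a surface marker of memory CD8 T cells in lymphoid organs, stood at 0.309 and 0.118 in IEL and 7.76 and 20.1 in SP. Dapl1 stood at 0.0201 and 0.0124 in IEL and 3.86 and 1.26 in SP. Cmah, an enzyme of sialic acid synthesis, stood at 0.0241 and 0.00620 in IEL and 1.88 and 1.66 in SP, and Ms4a4c at 0.00804 and 0.0248 in IEL and 0.912 and 1.99 in SP. In IEL, Dapl1, Cmah and Ms4a4c rested on 1 to 6 UMIs per pool.

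Of 15 inhibitory receptor genes, 8 were compared, and these 8 were at least 2-fold higher in IEL at both ages, with medians of 3.18 and 3.33. Only 2 of the 15 reached the level minimum in an SP pool, so most of the 8 were compared through their level in IEL and the count is no support for a shared direction. Cd160, a receptor for HVEM, stood at 7.16 and 7.67 in IEL and 0.454 and 0.596 in SP, and Ctla4 at 2.10 and 3.02 in IEL and 0.123 and 0.108 in SP. Pdcd1, which encodes PD-1, was low in all 4 pools at 0.117, 0.143, 0.0260 and 0.0459 and was not compared. Costimulation genes were divided, with 2 higher and 4 lower of 9 compared in young and 4 higher and 3 lower of 8 in old. Cd28 stood at 0.221 and 0.229 in IEL and 1.16 and 1.48 in SP.

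Of 22 genes of T cell receptor signalling, 6 of 21 compared were at least 2-fold higher and 1 lower in young IEL, and 7 higher and 1 lower in old IEL. Among 17 T cell transcription factor genes, 9 were higher and 3 lower of 12 compared in young, and 7 higher and 2 lower of 11 in old. Eomes stood at 0.0844 and 0.0620 in IEL and 0.503 and 1.23 in SP, and Tox at 2.48 and 2.38 in IEL and 0.905 and 0.697 in SP. The TGF-beta list, named for the cytokine that induces CD103, had 2 of 6 compared genes higher in young and 3 of 6 in old, and Tgfbr2 itself differed little, with 1.62 and 1.49 in IEL and 1.504 and 1.14 in SP. The IL-15 and common gamma chain list had 3 of 11 at least 2-fold higher at each age, with a median of 0.71 in young (7 above 0 and 4 below) and -0.45 in old (5 above and 6 below). NK receptors and adaptors had 3 of 5 higher in young, and 2 higher and 2 lower of 7 in old, the lower pair being Klrc1 and Klrk1.

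Lists that describe the state of the cells were counted in the same way. Cell cycle genes had 7 higher and 1 lower of 8 compared in young IEL, and 1 higher of 2 in old IEL. Immediate early and heat shock genes had 3 higher and 2 lower of 13 in young (median 0.07) and 8 higher of 15 in old (median 1.03). Interferon response genes had 2 higher of 11 in young, and 2 higher and 4 lower of 11 in old. Senescence genes had 1 higher and 1 lower of 4 at each age. These differences between the ages were not tested.

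Granzyme genes and genes of circulation were then counted cell by cell, as a description, since their summed levels already differed between the tissues. Thinned cells were sorted by UMIs of Gzma or Gzmb and by UMIs of Ccr7, Lef1, S1pr1 or Klf2, the genes of circulation. A granzyme UMI and none of the latter was found in 83.5% of young members (interval 79.1 to 87.3) and 85.4% of old members (80.7 to 89.4). In SP these were 0.405% and 1.65%. The reverse was found in 6 young and 4 old members (1.80% and 1.46%), against 83.2% and 77.7% in SP.

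The comparison of old with young members asks what differed with age within induced CD8αβ IEL. Most genes were at like levels. Of 3505 genes compared, 27 were at least 2-fold higher in old (0.77%) and 16 at least 2-fold lower (0.456%), together 1.23%, with a median log2 ratio of 0.01. In SP cells through the gate 56 of 2815 were higher (1.99%) and 16 lower (0.568%), together 2.56%, and without the largest clonotype, TRBV2 in old SP, 19 were higher and 5 lower. The higher genes in old IEL included Il7r, Ifng and the AP-1 gene Jun, and the lower ones an interferon-induced gene, Plac8 and genes of cell division.

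With 0.1 added to both levels, the largest ratio toward old was that of Ank2, which encodes ankyrin-B, an adaptor between membrane proteins and spectrin. Ank2 stood at 0.0442 in young (11 UMIs) and 0.508 in old IEL, a log2 ratio of 2.08. With 0.5 added instead, its ratio fell short of 2-fold and below those of Il7r and Ifng. Il7r (chr15:9505788-9530176, minus strand), the α chain of the IL-7 receptor, stood at 0.482 in young and 2.33 in old IEL (log2 ratio 2.06), and at 3.76 and 7.05 in SP. Ifng (chr10:118441046-118445892, plus strand), the gene of interferon-γ, stood at 0.659 in young and 2.86 in old IEL (1.97), and at 0.111 and 0.251 in SP. Counting intervals of the IEL pools did not overlap for any of the 3. These genes were named for large ratios in the same counts, so this is no support.

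In thinned cells the share of members with an Ifng UMI was 10.2% in young (interval 7.18 to 14.0) and 29.9% in old (24.6 to 35.7), and 25.2% and 48.0% before thinning. SP CD4 cells had it in 2.05% and 8.25% of cells (4.26% and 13.6% before thinning). The share with an Il7r UMI was 10.5% in young and 33.2% in old (18.3% and 56.4% before thinning). So the difference lay in how many cells carried these UMIs as well as in the summed level. In the αβ cells with Cd8a and 0 Cd8b1 UMIs the Il7r shares were 1.54% and 4.76% (4.20% and 9.51% before thinning), at median depths of 6756 and 5535 UMIs.

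Jun (chr4:95049034-95052222, minus strand), a subunit of the AP-1 transcription factor, stood at 3.62 in young and 12.5 in old IEL (log2 ratio 1.76), and at 4.41 and 3.99 in SP. Tsc22d3, a glucocorticoid-induced gene, stood at 1.53 and 4.25 (1.42). Rhob, a small GTPase, stood at 0.333 and 1.41 (1.80), and Hspa1b, an inducible heat shock protein, at 0.0964 and 0.601 (1.84). Jun, Rhob and Hspa1b are also known as genes that respond quickly to cell handling.

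The whole list of 15 immediate early and heat shock genes was therefore counted. All 14 compared in IEL were above 0, 3 of them by at least 2-fold (Jun, Hspa1b and Fosb), with a median of 0.70 against 0.01 over all genes. Fosb had 1.06, and 0.51 when each clonotype counted once. With at least 5 Cd8b1 UMIs, 6 of the 14 were at least 2-fold higher and the median was 0.93. Its summed level was 79.9 in young and 127 in old, led by Junb with 25.1 and 40.6. In SP the median of the same list was -0.15 and 6 of 14 were above 0. The part of cell handling in the differences between the IEL pools was not tested, and with 1 pool each it cannot be told apart from age.

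The other genes named as higher in old IEL were these. Ddc, which encodes aromatic amino acid decarboxylase, stood at 0.329 in young and 1.42 in old (1.82). Apol7b, of the apolipoprotein L family, stood at 0.265 and 1.22 (1.86), and Camk2n1, an inhibitor of CaM kinase II, at 0.454 and 1.33 (1.37). Selenom, a selenoprotein of the endoplasmic reticulum, stood at 0.297 and 0.856 (1.27), and Immp2l, a mitochondrial peptidase subunit, at 0.137 and 0.608 (1.58). Apol7b and Selenom were at 0.0102 or below in both SP pools.

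Among the lower genes, Ifi27l2a (chr12:103442167-103443680, minus strand), an interferon-induced gene, had the largest ratio. It stood at 3.68 in young and 0.496 in old IEL (log2 ratio -2.67), and at 3.63 and 2.59 in SP. Rtp4, also interferon-induced, stood at 0.534 and 0.186 (-1.15). Of the 15 genes of the interferon list, 10 were compared, these 2 were at least 2-fold lower, 3 were above 0 and the median was -0.11.

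Plac8, a gene of activated lymphocytes, stood at 2.38 in young and 0.539 in old IEL (-1.96), and at 1.34 and 1.23 in SP. Ptms, which encodes parathymosin, stood at 1.19 and 0.465 (-1.19), Abcb9, a lysosomal peptide transporter, at 0.502 and 0.186 (-1.07), and Anxa2, a membrane-binding annexin, at 1.11 and 0.508 (-0.99, short of 2-fold). Ighm, the immunoglobulin μ heavy chain, stood at 0.546 and 0.130 (-1.49), while Cd79a and Ms4a1 of B cells were at 0 in both pools.

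Several genes of cell division were lower in old members. The 12 genes of the list summed to 20.7 in young and 13.7 in old. Of these, 8 were compared and 5 were at least 2-fold lower (Ube2c, Birc5, Top2a, Mki67 and Stmn1), with a median of -1.06. All 5 reached the level minimum in the young pool only, so the count and the median are not support for a shared direction. Mki67 and Stmn1 had -1.07 and -1.05, and -0.48 and -0.49 when each clonotype counted once. With at least 5 Cd8b1 UMIs 3 of the 8 were at least 2-fold lower, with a median of -0.85. Ube2c, a ubiquitin-conjugating enzyme of mitosis, stood at 0.775 in young and 0.0868 in old IEL (-2.23). Top2a stood at 1.20 and 0.471 (-1.19), Birc5 at 0.591 and 0.174 (-1.34), and Cenpa, a centromeric histone outside the list, at 0.832 and 0.360 (-1.02). In young SP Ube2c and Top2a stood at 0.0382 and 0.130. Of the 12 genes of senescence and cell cycle arrest, 4 were compared, none passed 2-fold and the median was -0.02, and 3 of the 12 were at 0 UMIs in each of the IEL pools.

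**Figure D4:**
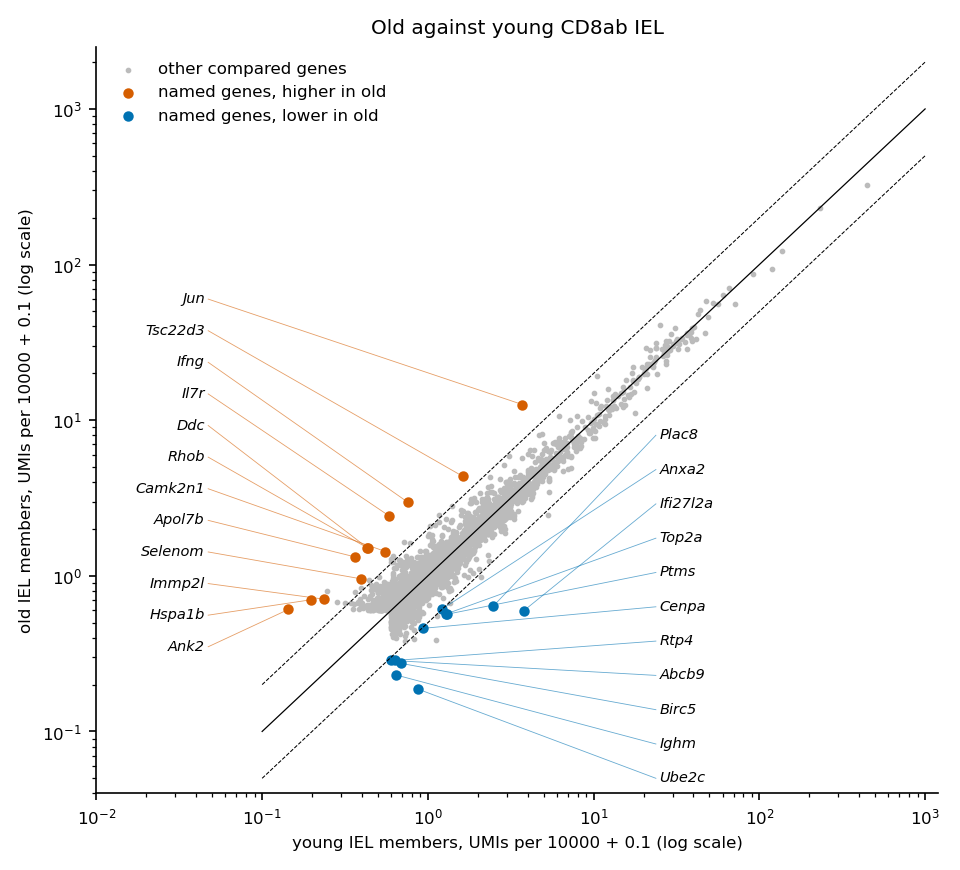
Level of each of 3505 genes in young IEL members (horizontal log axis) against old IEL members (vertical log axis), in UMIs per 10000 after adding 0.1; the solid line marks equal levels and the dashed lines 2-fold. The 12 named genes higher in old and 11 of those lower in old are labelled, from Ank2 (log2 ratio 2.08) to Ifi27l2a (-2.67), and Anxa2 lies just inside the lower dashed line.

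Genes of killing, residency and receptor signalling were counted against the 1.23% of all 3505 genes that passed 2-fold either way between the ages, a share at which lists of this size hold few such genes or none. None of 14 residency genes compared passed 2-fold (median 0.16), and Itgae stood at 7.87 and 8.90. None of 20 receptor signalling genes did (median -0.02), although Cd5 stood at 2.80 in young and 5.04 in old. Of 12 cytotoxic genes only Gzmk did, a granzyme of memory-type CD8 T cells, with 5.20 in young and 2.36 in old (-1.10). Its ratio was -0.51 when each clonotype counted once, so it rested partly on large clonotypes.

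Of 8 cytokine and chemokine genes only Ifng passed 2-fold, and the median was 0.19. Of 8 inhibitory receptor genes only Cd200r2 did, with 0.502 in young and 1.12 in old (median 0.28). Cd200r2 differed with the Cd8b1 step, at 1.73 in young and 4.09 in old members with 1 Cd8b1 UMI and at 0.121 and 0.543 in those with 5 or more, beside 3.06 and 3.54 in the cells without Cd8b1. Of 10 transcription factor genes only Rora did, with 1.29 and 2.72 (median 0.07), and of 4 genes of circulation only Il7r did (median -0.01). None of 7 costimulation genes (median -0.04), 5 NK receptor genes (-0.32), 6 TGF-beta genes (0.09) or 11 IL-15 and common gamma chain genes (-0.01) passed 2-fold. Bcl2, a survival gene downstream of IL-7, stood at 1.58 and 2.29.

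The differences between the ages were set beside those in other T cells of the same 2 IEL pools. In αβ cells with Cd8a and without Cd8b1, the 12 genes named as higher were above 0 in 12 of 12 cases, with a median log2 ratio of 0.99 against 1.81 in members. In cells of the CD4 gate 11 of 12 were above 0, with a median of 1.14, the exception being Il7r at -0.02 (1.54 in young and 1.52 in old). Of the 12 named as lower, 11 were below 0 in the cells without Cd8b1 and 12 in the CD4 gate. Of the 14 immediate early and heat shock genes, 14 were above 0 in the cells without Cd8b1 (median 0.43) and 7 in the CD4 gate (median 0.10). Past 2-fold were 6 of the 12 higher and 7 of the 12 lower genes in the cells without Cd8b1, and 8 and 7 in the CD4 gate. Most of the named differences thus had the same sign in these gates, and their size was not tested between cell types.

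With the 184 young and 156 old members that had at least 5 Cd8b1 UMIs, 49 genes were higher and 21 lower in old IEL. All 12 named higher genes stayed above 2-fold, and 11 of the 12 named lower genes did so. Ifi27l2a reached -3.22, Ddc 2.22 and Jun 1.97. The directions were thus the same without the members with few Cd8b1 UMIs, which carry natural IEL genes.

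Large clonotypes served as a further view of the members, with the caution that cells of 1 clonotype share their origin and that clonotypes of 1 pool are not replicates. Clonotypes of at least 8 members numbered 5 in young and 7 in old IEL. Jun stood between 2.15 and 4.79 in the young clonotypes and between 9.77 and 29.9 in the old ones. Rhob stood between 0 and 0.195 against 0.924 and 3.78, and Ddc between 0 and 0.290 against 0.822 and 2.17. Ifi27l2a stood between 1.44 and 4.94 in young and between 0 and 1.06 in old. The 2 groups of clonotypes did not overlap for these 4 genes, which had themselves been named for their difference between the pools. The lack of overlap is therefore no support, and it was not counted over all genes.

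The 2 groups of clonotypes did overlap for others, among them further genes named for age. Tsc22d3 stood between 0.781 and 4.19 in young and between 3.62 and 6.10 in old clonotypes. Apol7b stood between 0.145 and 1.20 against 0.725 and 2.27, and Plac8 between 0.599 and 3.96 against 0.0498 and 1.32. Ifng stood between 0.581 and 2.17 in young and 1.36 and 7.40 in old clonotypes, and Il7r between 0.436 and 1.20 against 0.605 and 4.22. Gzmk stood between 3.71 and 11.2 in young, and in old 1 clonotype reached 7.39 while the median was 0.906. Gzma was at 117 to 194 in young and 150 to 264 in old clonotypes. Fcer1g had medians of 0 in young and 0.132 in old. It reached 3.63 in the old TRBV12-1 clonotype and 2.30 in the old TRBV17 clonotype, and Tyrobp did not exceed 0.0498.

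**Figure D5:**
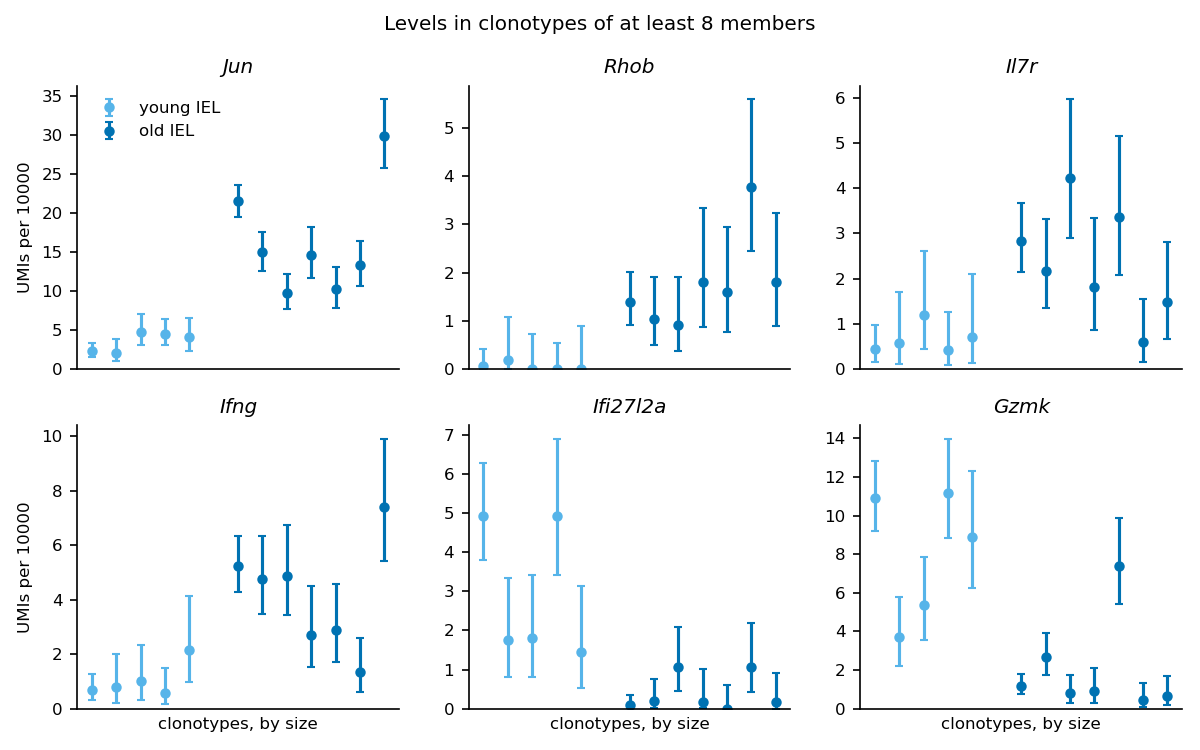
Levels (UMIs per 10000, vertical axes) of 6 genes in the 5 young and 7 old IEL clonotypes of at least 8 members, ordered by size along each horizontal axis; bars are exact 95% counting intervals. Jun, Rhob and Ifi27l2a did not overlap between the ages (Jun 2.15 to 4.79 against 9.77 to 29.9), and Il7r, Ifng and Gzmk did. Those without overlap had been named for their difference between the pools.

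Membership of shared clonotypes was also counted over the Cd8b1 steps. Members in a clonotype of 2 or more were 49.3% of those with 1 Cd8b1 UMI in young IEL, 69.5% of those with 2 to 4 and 55.4% of those with 5 or more. In old IEL these shares were 44.7%, 76.5% and 75.6%. In old IEL the cells with 1 Cd8b1 UMI were the least shared (interval 28.6 to 61.7 against 68.1 to 82.1 at 5 or more), and in young IEL these intervals overlapped (36.8 to 61.8 and 47.9 to 62.7). A second TRA contig, which a T cell can keep when both alleles rearrange, was found in 18.9% of young members (14.9 to 23.5) and 9.09% of old members (5.97 to 13.1), and in 11.9% and 6.07% of the SP cells. More than 1 TRB contig was found in 30 young and 2 old members, and no TRA contig in 35 and 44, and the part of either in the shares of a second TRA was not tested.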

How the data were processed

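Single-cell 5′ RNA and TCR data of 4 pools were used. The authors deposited counts of UMIs per gene and cell, made with Cell Ranger 7.0.1 on mm10, and tables of TCR contigs. No value column was left unmapped (0). Here members were selected by the gate in Python 3.11.15 (numpy 2.4.6, pandas 2.3.3), counts were summed per pool and scaled to 10000 UMIs, and exact Poisson and Clopper-Pearson intervals were taken from scipy 1.17.1. PCR duplicates had been collapsed by UMI. Genes with at least 0.5 UMIs per 10000 in 1 of 2 pools were compared by log2 ratio after adding 0.1, without TCR and gate genes. A fold of 2 was the size rule, since 1 pool per group allows no test. Simulated counts of 1580 genes, fewer than the 3505 compared between the ages of IEL, were put through the rule. It recovered 100% of 4-fold changes, 100% of 2.5-fold increases and 98.0% of decreases to 0.4, and called 0% of unchanged genes. With 1 pool per group no variation between pools could be measured for the simulation, so these shares cover counting error only. Named genes were the 12 (ages) or 8 (tissues, smaller ratio of both ages) largest ratios each way that kept their sign and at least 0.5 of their log2 ratio when each clonotype counted once, leaving out mitochondrial, ribosomal protein, predicted (Gm) and Rik genes; 1 of those lower in old IEL is not reported here. The gate, the 21 gene lists and the members were chosen with earlier results of these data known. Scrublet (scanpy 1.11.5) called 0 to 4 cells per pool, too few for a working caller, so doublets were addressed by leaving out cells with more than 1 productive TRB contig. Other settings tried were Cd8b1 minimums of 2 and 5 UMIs, thinning, clonotype weighting, a pseudocount of 0.5, filters and scaling. Members of clonotypes with more Cd4+ than Cd8b1+ cells were also left out. Without them 36 genes passed 2-fold between the ages of IEL, and 34 of these were among the 43 reported. Figures were made with matplotlib 3.10.9.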

Additional observations from a re-analysis of the deposited data

How the results depend on the processing

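No paired analysis was possible because each group was 1 pool, and for the same reason no replicate could be left out. Alternatives were set beside the reported values. The Cd8b1 minimum of 5 UMIs was chosen after seeing the data. The share of cells through the gate was 6.12% in young IEL and 4.08% in old IEL at 2 Cd8b1 UMIs, 4.23% and 2.69% in young and old IEL and 28.1% and 41.4% in young and old SP at 5 UMIs, and 5.98%, 4.08%, 20.9% and 25.4% in the same order after thinning to 2000 UMIs. Young IEL stayed above old IEL in these settings. Counts of genes past 2-fold moved by over 1.5 times as follows. In old against young IEL, 49 were higher with 5 Cd8b1 UMIs, 8 were lower when each clonotype counted once, and 10 were lower without the largest clonotype (33 genes in all, each of them among the 43 reported). With each clonotype once 29 were past 2-fold in either direction, and 20 of these were among the 43. Between the ages of SP it was 21, with 18 among the 72 reported. In old against young IEL, a pseudocount of 0.5 gave 7 higher and 3 lower genes. A minimum of 2 UMIs per 10000 gave 7 and 3, and no filter gave 57 and 32. Past 2-fold at the pseudocount of 0.5 were Il7r, Ifng, Jun, Tsc22d3, Rhob, Ddc and Apol7b (higher) and Ifi27l2a, Plac8 and Ube2c (lower). The other genes named for age fell short of 2-fold there. In old against young SP the counts were 18 and 3 with each clonotype once, 19 and 5 without the largest clonotype (TRBV2), 28 and 5 at the pseudocount of 0.5, 15 and 4 at 2 UMIs per 10000, and 113 and 37 without a filter. In young IEL against SP they were 231 and 132 at the pseudocount of 0.5, 119 and 88 at 2 UMIs per 10000, and 754 and 336 without a filter. In old IEL against SP, 295 were higher at the pseudocount of 0.5, and 176 and 102 at 2 UMIs per 10000 and 916 and 389 without a filter were higher and lower. Fewer or more genes compared change these counts by construction. The cause of the other shifts was not tested. The largest old SP clonotype held 45.9% by TRB and TRA together and 46.0% with 5 Cd8b1 UMIs. The share of members with an Itgae UMI was 56.2% in young and 57.1% in old at 1000 UMIs and 95.5% and 96.0% without thinning. That with a Gzmb UMI was 88.0% in young without thinning, and 79.0% and 78.3% in young and old with 1 cell per clonotype. No ratio of a named gene changed sign in any of these settings, but at the pseudocount of 0.5 the values of 18 of 24 named genes moved beyond their counting error between the ages of IEL, and those of 15 of 16 in young and 13 of 16 in old between IEL and SP. With each clonotype once it was 5 of 24 between the ages and 7 of 16 in each comparison with SP. Scrublet called 0 and 4 cells in young and old IEL and 1 in each SP pool, under 0.5% of cells, and none was a member, so leaving them out gave no other value. Depth limits genes near 0.5 UMIs per 10000 most in old IEL, the pool with the fewest UMIs, and shares of cells depend on the depth to which cells are thinned.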

Other observations

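The clonotype that held 1070 of the 2488 old SP cells through the gate was set beside the other old SP cells as a description. It stood at 7.77 UMIs per 10000 for Gzmm against 1.18 in the others, at 27.6 against 11.6 for Ly6c2 and at 133 against 70.0 for Ccl5. Gzmk stood at 0.00349 against 0.962. Its leading TRA contig was the same in 1052 of the 1070 cells, and the other 18 had none. No member of either IEL pool carried its TRB sequence.

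Some clonotypes of CD4 T cells reached into the members of old IEL. There, 8 clonotypes with more Cd4+ than Cd8b1+ cells held 15 members and 1919 cells in all. The largest of them held 811 cells and 1 member. In young IEL 7 such clonotypes held 11 members and 81 cells, and in SP there were none.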
